A study of Homo sapiens with 4 samples.

Results

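The 9 genes described here encode the proteins of the H/ACA ribonucleoprotein and the factors that build it: DKC1, GAR1, NHP2, NOP10, NAF1, SHQ1, RUVBL1, RUVBL2 and WRAP53. They were found by symbol among the 62893 Ensembl gene rows of a table of read counts, all 9 had a row, and all 9 were among the 16889 genes that passed the filter on low counts. DKC1 was selected on its measured fold change, siNSUN2 over siControl, so its difference between the groups is given as a description without a test. The other 8 were taken for their place in the particle, with earlier results of these data known, and their calls support nothing beyond themselves. T24 cells, an established line of human bladder cancer, received siRNA against NSUN2 (siNSUN2, 2 libraries) or control siRNA (siControl, 2 libraries), and their poly(A) RNA was sequenced. NSUN2 encodes a methyltransferase that places 5-methylcytosine on tRNAs and other RNAs, and the comparison asks which transcripts differ when it is knocked down. Whether the replicates came from separate cultures is not stated, and p-values therefore reflect only how these libraries vary, possibly for technical reasons. With 2 libraries a group, no permutation test can pass the threshold, so tests come from a model fitted across all genes.

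H/ACA particles are RNA-guided enzymes of the nucleolus and the Cajal bodies. Each carries a guide RNA and 4 core proteins, of which dyskerin, the product of DKC1, is the catalytic one: it converts uridine to pseudouridine in ribosomal and spliceosomal RNAs. The RNA component of telomerase folds into the same kind of domain and is held by the same proteins, and inherited defects of DKC1, NOP10, NHP2 and WRAP53 are known causes of dyskeratosis congenita, a disorder of short telomeres. Assembly is stepwise: SHQ1 holds newly made dyskerin, the paired ATPases RUVBL1 and RUVBL2 act in its release, and NAF1 occupies the place that GAR1 takes in the mature particle.

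The libraries held 92640839 counts (siNSUN2 replicate 1), 33633249 (siNSUN2 replicate 2), 42298529 (siControl replicate 1) and 215936965 (siControl replicate 2). Levels are given as CPM (counts scaled to a common library size) on library sizes scaled by TMM factors, so that 1 CPM stood for 34.2 to 213 counts. Fold changes are siNSUN2 over siControl on the log2 scale from the quasi-likelihood fit of edgeR, with adjusted p-values from that test over all genes tested and a threshold of 0.05. NSUN2 stood at 29.6 and 30.1 CPM in siNSUN2 cells, against 281 and 284 CPM in siControl cells. The keratins KRT7, KRT8 and KRT18 were abundant, whereas other urothelial and epithelial markers such as KRT5, UPK2, EPCAM and CDH1 were at or near 0. Summed markers of endothelial cells reached 2.37 to 10.6 CPM in siNSUN2 libraries and 0.395 to 0.635 CPM in siControl libraries, and immune markers 0.12 to 2.25 CPM in siNSUN2 libraries and 0 to 0.141 CPM in siControl libraries. Fibroblast markers summed to 3.10 to 3.39 CPM in siNSUN2 libraries and 1.04 to 2.26 CPM in siControl libraries, with COL1A1 called higher (log2 fold change 1.28, adjusted p = 0.0118), and erythroid markers to 0 to 2.92 CPM and 0 to 0.813 CPM in siNSUN2 and siControl libraries. The part of such reads in the results below was not tested.

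DKC1 (ENSG00000130826, chromosome X) had 5454 and 2010 counts in siNSUN2 libraries and 10891 and 54248 counts in siControl libraries. Scaled for depth, these were 59.4 and 58.7 CPM in siNSUN2 cells, against 256 and 255 CPM in siControl cells. The groups stood far apart and the libraries of each group nearly coincided, in siNSUN2 cells 59.1 ± 0.482 CPM and in siControl cells 256 ± 0.894 CPM (SD, n = 2 each). The log2 fold change was −2.11 (SE 0.0402), which leaves 23.1% of the siControl level. In such bulk libraries, fewer cells with the transcript and less of it per cell cannot be told apart. Among all genes tested, 127 had a lower fold change, and among the 8322 with an average log2 CPM of at least 4, 11 did. A call with a log2 fold change of −2 or less was made for 0.841% of the genes tested. DKC1 was chosen for this value, so its rank is no independent evidence.

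**Figure D1:**
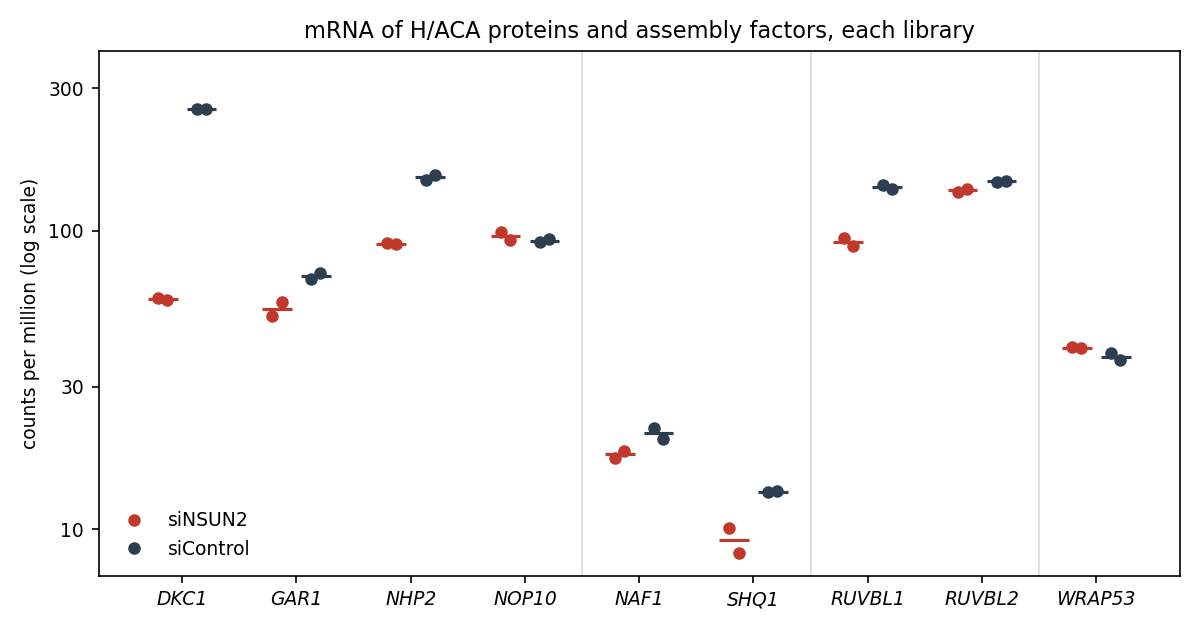
CPM of the 9 genes (log scale), with a point for each library and a bar at the mean of each group of 2. DKC1 lies at 59.4 and 58.7 CPM in siNSUN2 libraries and at 256 and 255 CPM in siControl libraries, while NOP10 overlaps between the groups.

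The other core proteins did not share the size of that difference. NHP2, which binds the guide RNA beside the catalytic subunit, had 91.1 and 90.0 CPM in siNSUN2 cells, against 148 and 154 CPM in siControl cells. Both siNSUN2 libraries lay below both controls, and NHP2 fell by 0.74 on the log2 scale (SE 0.0418, adjusted p = 7.96e-07). GAR1, which docks on dyskerin and helps the release of the modified RNA, had 51.6 and 57.7 CPM in siNSUN2 cells, against 68.7 and 71.9 CPM in siControl cells. It fell by 0.37 on the log2 scale (SE 0.059, adjusted p = 0.000913), without overlap between the groups. NOP10, the smallest core protein, which braces the active site of dyskerin, had 99.0 and 93.0 CPM in siNSUN2 cells, against 91.5 and 93.4 CPM in siControl cells. These values overlapped, and NOP10 did not pass the test (log2 fold change 0.055, SE 0.0455, adjusted p = 0.361). Its fold change was −0.026 without siControl replicate 1.

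The counting of reads bears on NHP2. Of the exonic bases of NHP2, 27.4% are also exonic in RMND5B, a gene on the opposite strand that rose to 45.3 ± 1.13 CPM in siNSUN2 cells, against 31.3 ± 0.877 CPM in siControl cells (SD, n = 2 each). The strand setting of the counting is not given in the sources used here, so reads of the shared stretch may be lost or assigned to either gene, and their part in the result was not tested. When trends on GC content and transcript length were taken off each library, NHP2 stood at −1.0 and GAR1 at −0.29. GAR1 then missed the threshold (adjusted p = 0.141), while its adjusted p over 15 alternatives ran from 3.17e-17 to 0.141 and passed in 14 of them.

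The assembly factors were the least abundant transcripts of the set. SHQ1, the chaperone that holds newly made dyskerin, had 10.1 and 8.35 CPM in siNSUN2 cells, against 13.3 and 13.4 CPM in siControl cells. The groups did not overlap, although siNSUN2 replicate 2 rested on 286 counts, and SHQ1 fell by 0.52 on the log2 scale (SE 0.101, adjusted p = 0.00187). NAF1, the placeholder for GAR1, had 17.4 and 18.3 CPM in siNSUN2 cells, against 21.9 and 20 CPM in siControl cells. It fell by 0.23 on the log2 scale (SE 0.0697, adjusted p = 0.0203), the groups lay apart without overlap, and the fold change went to −0.047 (adjusted p = 0.643) with GC content and length taken off. NAF1 also missed the threshold without siNSUN2 replicate 1 (−0.19, adjusted p = 0.124) and without siNSUN2 replicate 2 (−0.26, adjusted p = 0.0508), within a range of 0.00304 to 0.647 over 15 alternatives. SHQ1 went to −0.28 with the same correction, at an adjusted p of 0.0508, the highest of its 15 alternatives, which began at 9.78e-08.

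RUVBL1 and RUVBL2 form mixed rings that serve many assemblies besides H/ACA particles, and their transcripts differed in how far they moved. RUVBL1 had 94.4 and 88.5 CPM in siNSUN2 cells, against 142 and 138 CPM in siControl cells, and fell by 0.61 on the log2 scale (SE 0.0462, adjusted p = 4.54e-06). Of the exonic bases of RUVBL1, 5.39% are also exonic in EEFSEC, which did not pass (−0.046), and 5.01% in SEC61A1, which rose by 0.80. Both genes lie on the opposite strand. RUVBL2 had 135 and 138 CPM in siNSUN2 cells, against 146 and 147 CPM in siControl cells, a small difference without overlap (log2 fold change −0.11, SE 0.0391, adjusted p = 0.0453). That call was narrow: it was lost in 6 of 15 alternatives, among them those without siNSUN2 replicate 1 (adjusted p = 0.0713), without siNSUN2 replicate 2 (0.0585) and without siControl replicate 2 (0.0752). With GC content and length taken off, RUVBL2 stood at −0.52 (adjusted p = 2.98e-05), in a range of 6.42e-06 to 0.44 over all alternatives. Its GC content, 60.1%, is the highest of the 9 genes. Levels of the partners per kilobase of exonic length had a ratio of RUVBL1 to RUVBL2 of 0.373 and 0.344 in siNSUN2 libraries, against 0.518 and 0.502 in siControl libraries. The ratio rests on the lengths used: per kilobase of the transcript with the longest coding sequence, a length chosen after seeing the data, RUVBL1 averaged 51.9 CPM and RUVBL2 67.9 CPM in siNSUN2 cells, against 79.5 CPM and 73.1 CPM in siControl cells.

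WRAP53, also called TCAB1, binds the Cajal body signal of guide RNAs and of the telomerase RNA and directs them to Cajal bodies. It had 40.7 and 40.4 CPM in siNSUN2 cells, against 38.9 and 36.9 CPM in siControl cells. The groups did not overlap, but the difference did not pass the test (log2 fold change 0.10, SE 0.0492, adjusted p = 0.122), and its sign turned with GC content and length taken off (−0.12, adjusted p = 0.0809). None of the 15 alternatives called WRAP53, at adjusted p from 0.0595 to 0.648.

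Counted over the 9 genes, 7 were called lower by edgeR, DKC1 included, and 0 higher. Of all genes tested, 25.5% were called lower, 27.1% higher and 52.6% either way. The call of DKC1 follows from its selection. Apart from DKC1, those called lower were GAR1, NHP2, NAF1, SHQ1, RUVBL1 and RUVBL2, while NOP10 and WRAP53 were not called. The count of higher genes was 0 also at an unadjusted p under 0.05, with DESeq2 and with limma-voom. In these settings the same held for the C/D box and the 3′ end trimming genes described below. With GC content and length taken off, 4 of the 9 were called lower: DKC1, NHP2, RUVBL1 and RUVBL2. With the replicate block added to that correction, 6 were. CPM did not overlap between the groups in 8 of the 9, a state that 74.6% of all genes tested shared. The median log2 fold change of the 9 was −0.37 (−0.29 with the correction), against 0.026 over all genes tested. Because the set was drawn up around DKC1 with these results known, the counts describe it and no more.

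**Figure D2:**
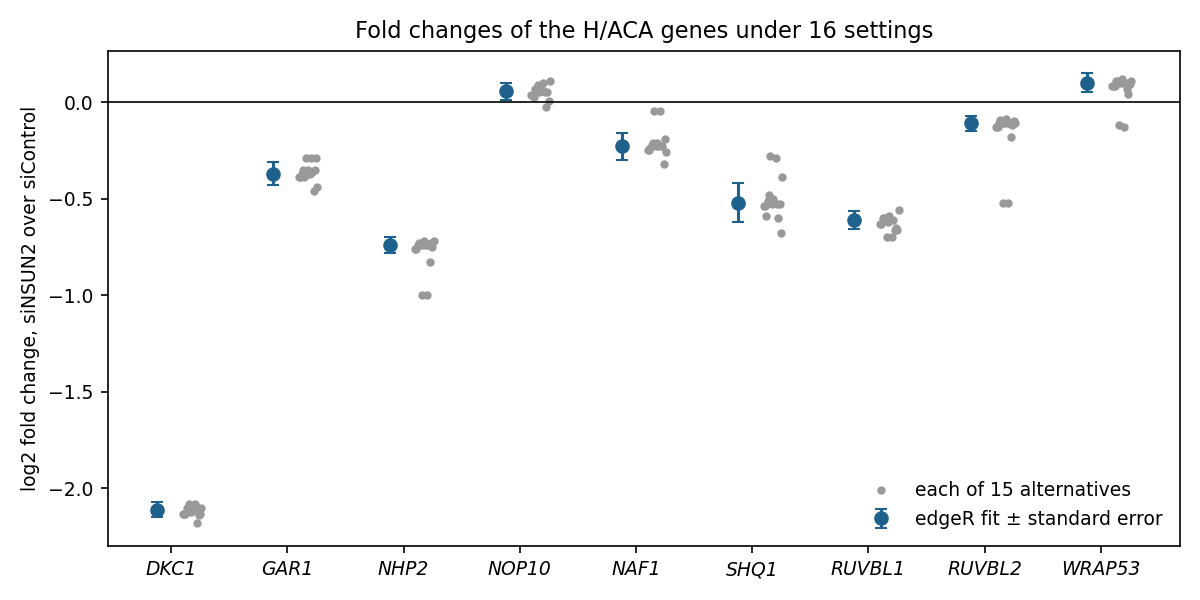
Log2 fold change of each gene, siNSUN2 over siControl, from the edgeR fit with its standard error (left) and under each of 15 alternatives (right, grey points). DKC1 stays between −2.18 and −2.08, whereas the points of NHP2, NAF1, SHQ1, RUVBL2 and WRAP53 that lie apart include those with the correction for GC content and length.

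Per kilobase of exonic length, the order of the transcripts shifted at DKC1. NOP10 was the highest in both groups, at 173 ± 7.73 CPM per kilobase in siNSUN2 cells and 167 ± 2.38 in siControl cells (SD, n = 2 each). NHP2 came next, at 60.0 ± 0.529 CPM per kilobase in siNSUN2 cells and 100.2 ± 2.67 in siControl cells. DKC1 was the fifth of the 9 in siNSUN2 cells, at 14.1 ± 0.115 CPM per kilobase, and the third in siControl cells, at 60.8 ± 0.213. In siNSUN2 cells it lay below RUVBL2 (37.2 ± 0.427) and GAR1 (26.7 ± 2.10), both of which it exceeded in siControl cells (RUVBL2 40.0 ± 0.198, GAR1 34.4 ± 1.09). Its neighbour below in siNSUN2 cells was RUVBL1, at 13.3 ± 0.615, which is apart from DKC1 by little more than the spread of RUVBL1. WRAP53 (7.98 and 7.45), NAF1 (3.71 and 4.36) and SHQ1 (1.58 and 2.28 CPM per kilobase in siNSUN2 and siControl cells) closed the order in both groups.

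The proteins of the core enter a particle in equal numbers, and their mRNA levels can be set side by side on the same scale. DKC1 made up 5.07% and 5.18% of the summed CPM per kilobase of the 4 core genes in siNSUN2 libraries, against 17.0% and 16.6% in siControl libraries. The share of GAR1 was 9.06% and 10.5% in siNSUN2 libraries, against 9.38% and 9.58% in siControl libraries. NHP2 held 21.7% and 22.1% in siNSUN2 libraries, against 27.5% and 27.9% in siControl libraries, and NOP10 64.2% and 62.2% in siNSUN2 libraries, against 46.1% and 46.0% in siControl libraries. Level for level, DKC1 stood at 0.560 and 0.495 of GAR1 in siNSUN2 libraries, against 1.82 and 1.73 in siControl libraries. These shares rest on the lengths used: with the length of the transcript that has the longest coding sequence, a choice made after seeing the data, DKC1 made up 6.43% and 6.48% of the core in siNSUN2 libraries, against 19.7% and 19.1% in siControl libraries. With that length NHP2 (175) lay above NOP10 (167) in siControl cells, DKC1 was the third of the 9 in siControl cells (99.2 CPM per kilobase) and the sixth in siNSUN2 cells (22.9), below RUVBL1 (51.9). An mRNA level does not give the amount of protein.

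**Figure D3:**
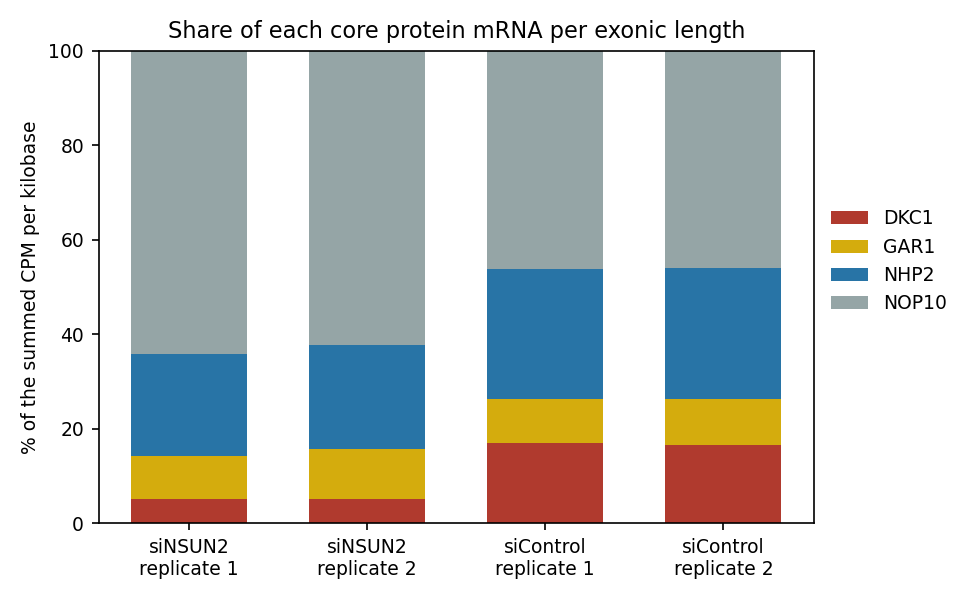
Share of each of the 4 core genes in their summed CPM per kilobase of exonic length, for each library. DKC1 takes 5.07% and 5.18% in the siNSUN2 libraries and 17.0% and 16.6% in the siControl libraries, and GAR1 keeps about the same share.

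The 3′ UTR of DKC1 holds a short word that those of the other core genes do not. An earlier look at these data had found that transcripts holding the 6-base word ACCCTA tended to be lower in siNSUN2 cells, most so in its longest form AACCCTAA. Among the 9 genes, the longest annotated 3′ UTR of DKC1 (1592 bases, GENCODE release 29) holds the 8-base form once, starting at base 1177. The word lies in 2 of the 5 annotated DKC1 transcripts with a 3′ UTR. Of the other 8 genes, only WRAP53 holds the 6-base word in a 3′ UTR, and there in 2 transcripts of 7, while GAR1, NHP2, NOP10, NAF1, SHQ1, RUVBL1 and RUVBL2 hold it in none of their annotated 3′ UTRs. The stretches around the 8-base form are shown for DKC1, for the 3 genes below with a pattern most like it that also hold this form, and for ZCCHC8 and DIS3, factors of RNA 3′ end trimming that hold it at a smaller fold change. Capitals mark the 8-base form.
DKC1: aatgctgtagAACCCTAAataagtggtag
RAB23: ctgaaaggtaAACCCTAAatcttgccaga
PFN2: cttcatcaacAACCCTAAttatggtcaca
TMX2: acctagatttAACCCTAAggtaagatgct
ZCCHC8: tctagatttgAACCCTAAtagttaaaaat
DIS3: tcctttcaacAACCCTAAtactttactag

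These stretches were read 5′ to 3′ from GENCODE transcripts on GRCh38, where they lie at chrX:154777263-154777291 (plus strand) for DKC1, chr6:57189990-57190018 (minus) for RAB23, chr3:149966108-149966136 (minus) for PFN2, chr11:57740615-57740643 (plus) for TMX2, chr12:122472009-122472037 (minus) for ZCCHC8 and chr13:72753045-72753073 (minus) for DIS3. The counts themselves were made on hg19. Of 12509 coding genes tested with a 3′ UTR of at least 50 bases, 2.64% (330) held the 8-base form and 23.1% (2894) the 6-base word, searched on the strand of the transcript in the longest annotated 3′ UTR. The 8-base form contains the 6-base word. The 330 genes had a median log2 fold change of −0.38, and 58.5% of them were called lower, against 30% of the genes without the form. DKC1 stood near the low end even there, with 6 of the 330 lower. The word was found in these same data and DKC1 was chosen for its fall, so neither value is independent evidence. These fold changes are without the correction for GC content and length, and the groups were not matched for 3′ UTR length. ZCCHC8 (log2 fold change −0.20) and DIS3 (−0.37) hold the same 8 bases, so the form stood in genes with differences of unequal size. A match describes the sequence and is neither a site nor a cause, and its part in the lower DKC1 level was not tested.

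**Figure D4:**
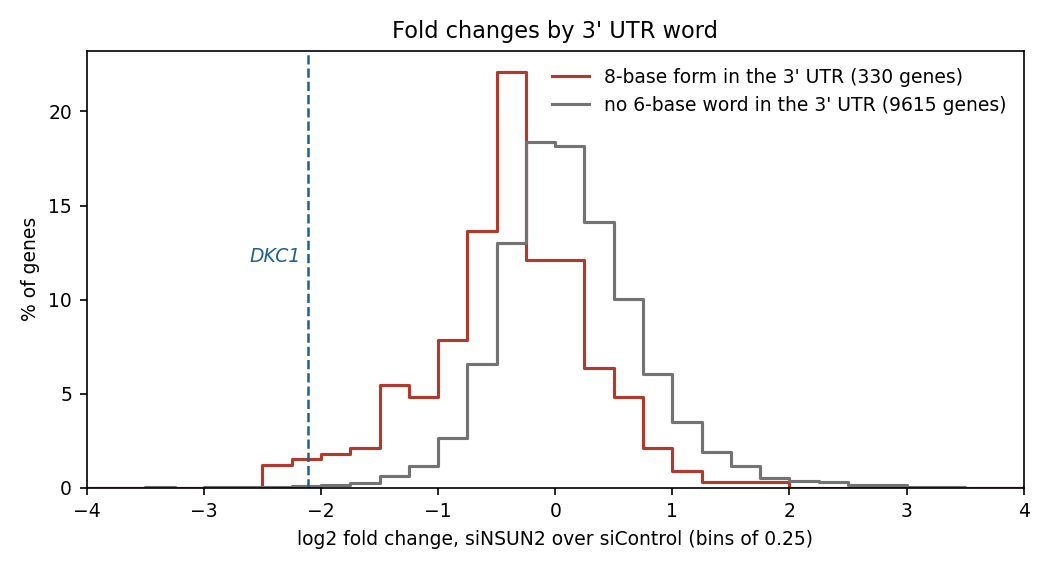
Distribution of log2 fold changes (siNSUN2 over siControl, bins of 0.25) of the 330 genes whose 3′ UTR holds the 8-base form and of the 9615 genes without the 6-base word. The first group lies to the left of the second, and DKC1 (dashed line, −2.11) lies near its low end.

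The genes whose pattern over the 4 libraries was most like that of DKC1 were sought among 8242 others with an average log2 CPM of at least 4, by the distance between log2 CPM values after the siControl mean of each gene was taken off. They were MGAT5, a Golgi enzyme that branches N-glycans (distance 0.11), RAB23, a small GTPase (0.16), PFN2, an actin-binding profilin (0.16), CENPE, a kinetochore motor (0.19), and TMX2, a thioredoxin-like membrane protein (0.19). MGAT5 had 19.7 and 18.2 CPM in siNSUN2 cells, against 84.7 and 86.2 CPM in siControl cells. RAB23 had 10.3 and 11.2 CPM in siNSUN2 cells, against 44.6 and 42.9 CPM in siControl cells. PFN2 had 48.6 and 44.7 CPM in siNSUN2 cells, against 184 and 195 CPM in siControl cells. Each gene was lower in both siNSUN2 libraries, without overlap, which follows from how they were chosen. Of the 5, the longest 3′ UTRs of RAB23, PFN2 and TMX2 held the 8-base form, that of MGAT5 held only the 6-base word, and that of CENPE held neither. Of the coding genes searched, 2.64% held the 8-base form. The word was found through lower genes in these data, and these 5 were chosen for a fall, so the count is no independent evidence. With 2 libraries a group, the likeness is mostly that of 1 fold change.

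Dyskerin particles have a sister family, the C/D box particles, which guide 2′-O-methylation and share RUVBL1 and RUVBL2 in their assembly. Of 7 C/D genes tested, 6 fell, 0 rose and 1 did not pass, with a median log2 fold change of −0.54. Over all genes tested, 25.5% were called lower and 27.1% higher, the background for each list below as well. NUFIP1, an assembly scaffold, fell to 16.5 ± 0.694 CPM in siNSUN2 cells, against 32.0 ± 1.66 CPM in siControl cells (SD, n = 2 each, log2 fold change −0.95). SNU13, the first protein on the box C/D motif, and the core protein NOP58 had log2 fold changes of −0.60 and −0.51. FBL, the methyltransferase of these particles and so the counterpart of dyskerin, had 114 and 105 CPM in siNSUN2 cells, against 139.7 and 135 CPM in siControl cells, and fell by 0.32. The catalytic subunits of the sister particles thus had log2 fold changes of −2.11 and −0.32, a difference given as a description. RRP9, specific to the U3 particle, did not pass (−0.084). With GC content and length taken off, RRP9 stood at −0.51 (edgeR adjusted p = 7.82e-05) and FBL at −0.49. NUFIP1 then stood at −0.69 and NOP58 at −0.28, and all 7 genes were called lower. FBL, RRP9, TRUB1, COIL and the R2TP genes that rose are outside the rule by which genes were named and were picked after their values were seen.

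Genes of the R2TP co-chaperone, which brings RUVBL1 and RUVBL2 together with HSP90, were divided: of 14 tested, 8 fell, 4 rose and 2 did not pass (median −0.25). Among all genes tested, 25.5% were called lower and 27.1% higher, so the rises are near the background. HSP90AA1, the inducible HSP90, fell to 2109 ± 94.3 CPM in siNSUN2 cells, against 4107 ± 57.9 CPM in siControl cells (SD, n = 2 each, log2 fold change −0.96). The other HSP90 gene, HSP90AB1, averaged 2519.5 CPM in siNSUN2 cells and 3246 CPM in siControl cells. It fell by 0.37 on the log2 scale. Of the R2TP subunits, RPAP3 fell by 0.33 and PIH1D1 did not pass (−0.067). With GC content and length taken off, RPAP3 stood at −0.04 (edgeR adjusted p = 0.512) and PIH1D1 at −0.32 (0.00079). TTI1, which with TELO2 links R2TP to large kinases, and the prefoldin subunit PFDN6 both had a log2 fold change of −0.61. The 4 that rose were UXT (0.38), PFDN2 (0.24), POLR2E (0.44) and TELO2 (0.58). With GC content and length taken off they stood at 0.35, 0.14, 0.042 and −0.15, and none was called. With the replicate block added to that correction, 3 genes of the list were called higher.

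Pseudouridine is also made by enzymes that work without a guide RNA. Of 12 stand-alone synthases tested, 7 fell, 3 rose and 2 did not pass (median −0.39). The rises are near the 27.1% of all genes tested that were called higher, while 25.5% were called lower. RPUSD3, a mitochondrial enzyme, fell to 13.6 ± 1.42 CPM in siNSUN2 cells, against 30.6 ± 1.66 CPM in siControl cells (SD, n = 2 each, log2 fold change −1.16). PUS7, which modifies tRNAs and mRNAs, had a log2 fold change of −0.64. TRUB1, a relative of dyskerin in the TruB family, fell by 0.39, to 39.4 and 40.7 CPM in siNSUN2 cells, against 51.8 and 52.8 CPM in siControl cells, and stood at −0.072 with GC content and length taken off. PUSL1 rose by 0.64, and by 0.09 with that correction, under which none of the 3 was called higher. TRUB2 then stood at 0.085 and RPUSD1, which rose by 0.55, at −0.17, called lower (adjusted p = 0.0378).

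Telomerase and telomere genes moved both ways, with 5 falls, 3 rises and 2 of 10 not passing (median −0.10). All genes tested had shares of 25.5% lower and 27.1% higher, and the rises here are near that share. TERT, the reverse transcriptase that works with dyskerin in telomerase, had 14.7 and 15.8 CPM in siNSUN2 cells, against 15.8 and 15.1 CPM in siControl cells. The groups overlapped and TERT did not pass (log2 fold change −0.019, adjusted p = 0.856), but it stood at −0.74 (adjusted p = 0.000156) with GC content and length taken off. The shelterin genes TERF1 and TERF2, whose products bind telomeric DNA, had log2 fold changes of −0.74 and −0.66. ACD, which recruits telomerase to telomeres, rose by 0.68, and by 0.18 with the correction. TERC, the telomerase RNA, which has no poly(A) tail when mature, had 0 and 0 counts in siNSUN2 libraries and 0 and 2 counts in siControl libraries.

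Factors that trim and cap the ends of telomerase RNA and small nucleolar RNAs were lower or did not pass: of 12 tested, 9 fell, 0 rose and 3 did not pass (median −0.45). The background over all genes tested was 25.5% lower and 27.1% higher. PARN, the deadenylase that matures telomerase RNA after the particle has formed, fell to 38.8 ± 1.41 CPM in siNSUN2 cells, against 68.6 ± 1.76 CPM in siControl cells (SD, n = 2 each, log2 fold change −0.82). The cap-binding gene NCBP1 and the cap hypermethylase gene TGS1 had log2 fold changes of −0.81 and −0.60. With the replicate block added to the correction for GC content and length, 1 gene of the list was called higher.

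Partners in the nucleolus and the Cajal body gave 5 falls, 1 rise and 6 of 12 not passing (median −0.20). Beside them, 25.5% of all genes tested were called lower and 27.1% higher. NOLC1, the nucleolar phosphoprotein that binds H/ACA and C/D particles, fell to 230.4 ± 4.52 CPM in siNSUN2 cells, against 419 ± 9.70 CPM in siControl cells (SD, n = 2 each, log2 fold change −0.86). NPM1 and NCL, abundant nucleolar proteins, had log2 fold changes of −0.88 and −0.83. The rise was that of COIL, the scaffold of Cajal bodies, with 68.6 and 66.2 CPM in siNSUN2 cells, against 60.6 and 58.0 CPM in siControl cells (log2 fold change 0.19), and it was not called without siControl replicate 2 or without siNSUN2 replicate 1. SMN1 and SMN2 are near-identical copies, so their counts are uncertain.

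The chromatin complexes that also contain RUVBL1 and RUVBL2 were measured as well. Of 28 genes of the INO80, SRCAP and TIP60 complexes, 6 fell, 11 rose and 11 did not pass, with a median of 0.043. Of all genes tested, 25.5% were called lower and 27.1% higher. The falls are near that background, whereas the rises lie above it. With DESeq2, 8 were called higher. With GC content and length taken off, 8 rose and 9 fell. ACTR6, UCHL5 and MCRS1 had log2 fold changes of −0.83, −0.51 and −0.56. INO80 rose by 0.16, SRCAP did not pass (0.01), and KAT5, the acetyltransferase TIP60, rose by 0.51. With the correction INO80 stood at 0.10 (adjusted p = 0.134) and KAT5 at 0.15 (adjusted p = 0.0564), neither called, and SRCAP at −0.40, called lower (adjusted p = 0.00036).

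**Figure D5:**
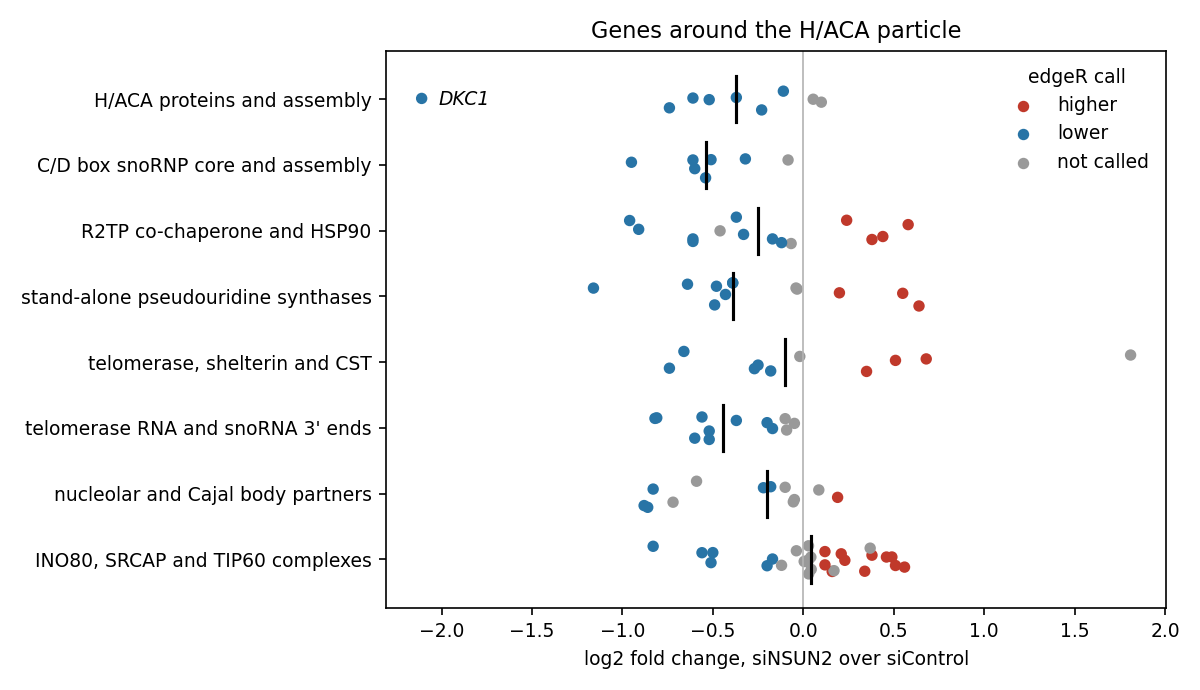
Log2 fold changes (siNSUN2 over siControl) of the 9 genes and of 7 lists of related genes, with a point for each gene tested, coloured by the edgeR call, and a black bar at the median of each list. DKC1 lies farthest to the left of all genes plotted.

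The guide RNAs themselves are barely seen in poly(A) libraries, since they are short and have no poly(A) tail. Of 210 small RNA rows with names beginning with SNORA or SCARNA, 112 had 0 counts in every library. These rows were taken by name and not sorted by class of guide RNA. Together they summed to 17.1 and 21.3 CPM in siNSUN2 libraries, against 19.3 and 21.8 CPM in siControl libraries, ranges that overlap. SNORA36A and SNORA56 lie within DKC1, both at 0 counts in all 4 libraries. They share 117 and 129 bases with annotated exons of DKC1 on the same strand. Reads of these stretches may be lost or assigned to DKC1, and the part of this in the 0 counts was not tested. The rows with the highest mean counts were SNORA73B, SNORA33 and SNORA72. Counts of this kind do not measure how much guide RNA the cells contain.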

How the data were processed

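Poly(A) RNA-seq of T24 cells was used from 4 libraries, 2 siNSUN2 and 2 siControl, grouped by their labels. The authors deposited raw counts per gene, aligned with HISAT2 to hg19 and counted with HTSeq, per the submitters' processing notes; of versions, annotation and strand setting, none is stated there. Of 62893 rows, 31524 were 0 in every library and 16889 passed filterByExpr, holding 99.96% of the counts. Depth differed 6.42-fold between the deepest and the shallowest library, and precision differs with it.

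The counts were tested in R 4.3.3 with edgeR 4.0.16 (TMM factors, robust quasi-likelihood fit, Benjamini-Hochberg adjustment, threshold 0.05), siNSUN2 over siControl. limma 3.58.1, DESeq2 1.42.0, other scalings and filters, a replicate block, left-out libraries, thinning and loess offsets on GC content and length (known for 96.4% of the genes tested) were alternatives. The main fit was tested on simulated data in which far fewer genes changed than were called here. That test does not show how scaling behaves when so many genes move. Gene symbols, lengths and 3′ UTRs came from GENCODE release 29 on GRCh38 through gene identifiers. The members and lists were chosen with earlier results of these data known. Named were all 9 genes, the 3 genes of each list with the smallest p and any gene it is named for. The 5 genes most like DKC1 and the 3 highest SNORA or SCARNA rows were named too.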

Additional observations from a re-analysis of the deposited data

How the results depend on the processing

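Over 15 alternatives the log2 fold change of DKC1 ran from −2.18 to −2.08. It was −2.13 with DESeq2, with its size factors in edgeR and with libraries thinned to the shallowest total, −2.10 with library totals alone and with no filter on low counts, and −2.08 with offsets on GC content and length, alone or with the replicate block. Leaving out 1 library gave −2.18 to −2.10. Of the 9 genes, 7 were called lower, against 4 with the offsets alone and 6 with the offsets and the block. DKC1, chosen for its fall, is in each of these counts. The 7 related lists had 22 genes called higher, against 13 with the offsets alone and 20 with both. Among list and marker genes called higher, RPUSD1 (−0.17, adjusted p = 0.0378), INO80E (−0.16, adjusted p = 0.00735) and KRT7 (−0.23, adjusted p = 0.00113) were called lower by edgeR with the offsets. The labels give both groups the replicate numbers 1 and 2, but do not say whether same-numbered libraries share more than the number. The deviations of replicate 1 from the group means had a correlation of 0.237 between the groups. With 2 libraries a group, those of replicate 2 only mirror them. With the replicate block, 5027 genes were called higher and 4788 lower over all genes tested, and 7 of the 9 genes were called lower. The causes of these shifts were not tested. Depth limits the genes with few counts, such as SHQ1 and the small RNA rows.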
